A study of Mus musculus with 24 samples.

Results

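The comparison described here set the proximal end of the mandible (the lower jaw) against the proximal end of the maxilla (the upper jaw) in control mouse embryos at embryonic day 14.5. Its members were the 3 arrays titled P_Mandible and the 3 titled P_Maxilla of the control genotype, 6 of the 24 arrays in the series. The embryos were of strain C57B6 and came from matings of Wnt1cre;Tgfbr2 fl/+ mice with Tgfbr2 fl/fl mice. Tgfbr2 encodes a TGF-beta receptor, and Wnt1cre removes floxed sequence in cells of the neural crest lineage, which excludes muscle, endothelium and surface epithelium. Controls were littermates of mutants, and the submitters told mutants from controls by defects of the palate (cleft) and of the skull vault. The labels do not tell which Tgfbr2 alleles a control carried or whether it carried Wnt1cre, so the controls are not stated to be wild type. Every embryo of this cross receives a floxed allele from the Tgfbr2 fl/fl parent. The control distal ends (3 mandible and 3 maxilla arrays) and the mutant proximal ends (3 and 3) were used only to ask whether the jaw difference depended on the end or the genotype. The tissue label is bone, but each sample was a dissected end of a jaw, and where each jaw was cut is not given. The series was designed to profile mandible and maxilla development, and the comparison answers how the proximal pieces of both jaws differed in embryos without the mutant phenotype.

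Both jaws form largely from neural crest mesenchyme of the first pharyngeal arch. In its lower part the secreted peptide endothelin-1 signals through Mef2c to the homeobox genes Dlx5 and Dlx6 and to Hand2, which specify lower jaw identity, while the upper part develops without this input. The rear mandible carries the jaw-closing muscles and their attachments, and the rear maxilla adjoins the palate and the nasal cavity, whose lining includes secretory glands, ciliated cells and the olfactory epithelium with its neurons. In whole pieces of tissue a lower signal can come from fewer cells of a type or from less RNA per cell, and these cannot be told apart here.

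All values are log2 array signals from the deposited table, and a difference is mandible minus maxilla, so a positive value is higher in the mandible and 1 unit is a doubling. Values of single arrays are given in the order 1, 2, 3. A difference is followed by ± the standard error of the limma fit (n = 3 arrays per jaw). The fit pooled the spread over all 24 arrays in 8 groups, so ± does not describe the spread of the 6 arrays alone. After ± comes limma's Benjamini-Hochberg adjusted p over the 12811 genes tested. A gene counted as different when that p was under 0.05. Nothing in the labels says if the 3 arrays of a group hold RNA of separate embryos, of separate litters or of pooled tissue. The p-values therefore measure no more than the variation within the 8 groups of arrays, possibly technical, and precision is limited by the number of arrays. The 6 arrays had medians of 6.96 to 6.99. Arrays of one group differed from each other by a root mean square of 0.229 to 0.287, and arrays of different jaws by 0.696 to 0.798. Genes below the array median are close to background, and their differences are compressed. Osteoblast genes had a mean over 15 tested members of 12.41, 11.99 and 11.98 in the mandible and 10.89, 10.72 and 10.03 in the maxilla. These means lie far above the array medians, but tested genes had to pass a filter on that median. They therefore do not check the label bone. Xist, made only in females, was high in mandible 1 and 2 and maxilla 1 (12.43 to 13.40) and low in the other 3 arrays (6.28 to 6.49), so its level was not balanced between the jaws. The Y-linked gene Eif2s3y read 9.45 in mandible 2, where Xist was also high.

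Of the 12811 genes, 4302 differed between the jaws (33.6%). Counts of list members called, given below, are to be read beside this share. The mandible was higher for 2127 (16.6%) and the maxilla for 2175 (17%). The calls were even in number but not in size. A difference of at least 1 was reached by 401 genes higher in the mandible and 728 higher in the maxilla, and a difference of at least 3 by 37 and 119. At 4 or more, 3 genes were higher in the mandible and 46 in the maxilla. The values of the jaws did not overlap for 4236 of the genes called (98.5%) and for 6628 of all genes tested (51.7%). A lack of overlap in a called gene therefore adds little to its call. The median difference over all genes tested was 0.02 and the median standard error 0.106. At an unadjusted p under 0.05 limma counted 5456 genes. One jaw was below the array median for 627 of the genes called and both jaws for 48. The plot of jaw difference against signal shows this asymmetry, with the far lower edge formed by genes that were near background in every mandible array.

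**Figure D1:**
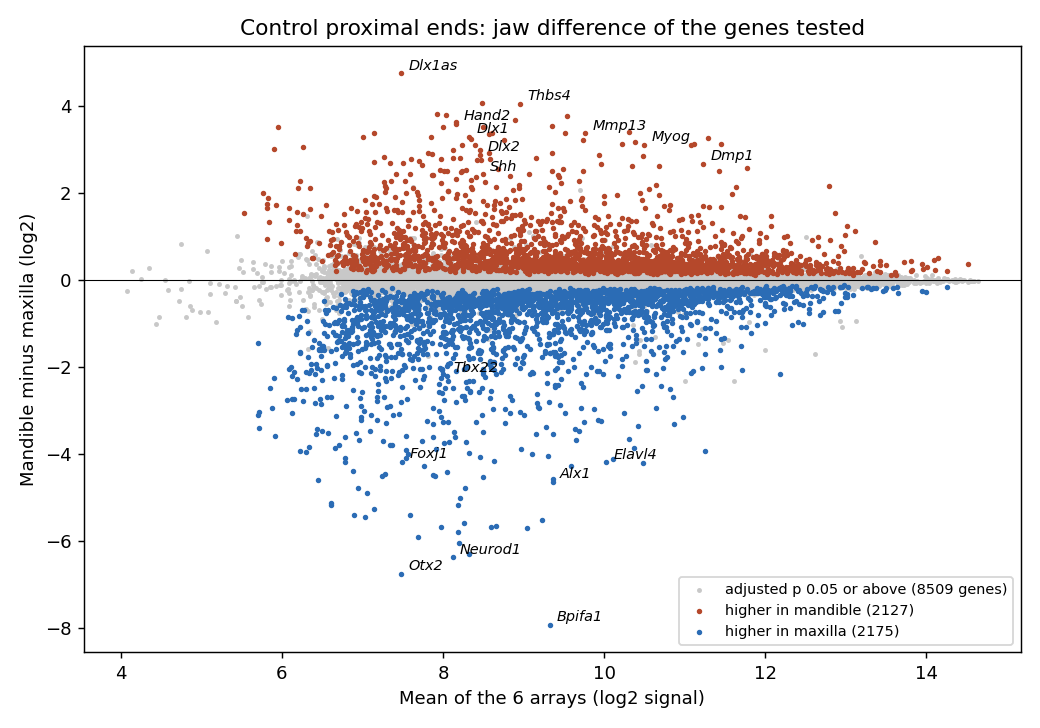
Jaw difference (mandible minus maxilla, log2) of each of the 12811 genes tested against the mean log2 signal of the 6 control proximal arrays, each point a gene. The 2127 genes higher in the mandible are red and the 2175 higher in the maxilla blue; downward points reach -7.92 (Bpifa1) while upward points reach 4.75 (Dlx1as).

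Genes of the lower jaw programme were mostly higher in the mandible, led by Hand2. Of 15 tested genes of the endothelin, Dlx and Hand list, 9 were higher in the mandible, 2 were higher in the maxilla and 4 were not called, with a list median of 0.37 beside 0.02 over all genes. Hand2, a basic helix-loop-helix factor that acts below endothelin, measured 9.78, 10.01 and 10.09 in the mandible and 6.97, 6.08 and 6.06 in the maxilla. The maxilla arrays lay at or below the level of the array medians and more than 2 units below the mandible arrays. The difference was 3.59 ± 0.37 (adjusted p = 4.14e-06), and all 3 probe sets of the gene had this direction. The sequence before its start is shown because Hand2 is the lower jaw gene with the largest difference in this list and a target of Dlx homeobox factors. In the RefSeq window of 250 bases before the start (GRCm38.p6, chr8:57320733-57320982, plus strand), capitals mark matches to the homeodomain core sequences TAATTA and TAATTG, searched on both strands.
Hand2: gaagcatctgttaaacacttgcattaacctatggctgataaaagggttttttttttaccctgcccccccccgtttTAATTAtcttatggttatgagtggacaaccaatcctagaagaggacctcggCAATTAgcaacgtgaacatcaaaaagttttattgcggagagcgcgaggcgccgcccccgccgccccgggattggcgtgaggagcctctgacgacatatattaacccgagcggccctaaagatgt
The window held TAATTA 175 bases and CAATTA, the other strand of TAATTG, 124 bases before the start. Of 32851 RefSeq windows of the same length from 27025 genes, 4.84% held TAATTA and 7.17% held TAATTG. These are matches of letters, and binding was not measured.

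Upstream, Ece1, Gna11 and Mef2c were called, and Edn1, Gnaq and Plcb3 were not. Edn1, the endothelin-1 ligand, was close to the array median in all 6 arrays, at 6.74, 6.98 and 6.98 in the mandible and 6.83, 6.71 and 6.79 in the maxilla (0.12 ± 0.13, adjusted p = 0.503). Ece1, the enzyme that cleaves the precursor of endothelin, was higher in the maxilla (10.44, 10.43 and 10.48 against 11.06, 11.27 and 11.2, -0.73 ± 0.13, adjusted p = 0.000448), a direction shared by 2 of its 3 probe sets. The G protein genes downstream of the receptor gave 0.37 ± 0.054 for Gna11 (adjusted p = 7.27e-05) and -0.016 ± 0.084 for Gnaq (adjusted p = 0.904, 4 of 7 probe sets in this direction). Plcb3, a phospholipase they activate, stood at 0.11 ± 0.075 (adjusted p = 0.298). Mef2c, the transcription factor that links the endothelin signal to Dlx5 and Dlx6 and that is also active in muscle, measured 11.81, 11.62 and 11.86 in the mandible and 10.37, 10.62 and 10.25 in the maxilla. The lowest mandible array lay above the highest maxilla array, and the difference was 1.35 ± 0.14 (adjusted p = 5.14e-06).

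All 6 Dlx homeobox genes tested were higher in the mandible, including the pair needed in the upper jaw. Dlx5 and Dlx6, which set lower jaw identity, differed by 0.91 ± 0.19 (adjusted p = 0.00142) and 0.96 ± 0.24 (adjusted p = 0.00434), and both had strong signals in both jaws (11.68, 11.71 and 11.45 against 10.57, 11.06 and 10.49 for Dlx5). Dlx3 and Dlx4, a further linked pair of the family, differed by 1.16 ± 0.23 (adjusted p = 0.000779) and 1.27 ± 0.28 (adjusted p = 0.00174). Dlx1 and Dlx2, which in mice are needed for upper jaw structures, had the larger differences. Dlx1 measured 9.71, 10.32 and 9.87 in the mandible and 6.7, 6.24 and 7.1 in the maxilla, a difference of 3.29 ± 0.4 (adjusted p = 1.45e-05). Dlx2 measured 9.81, 10.15 and 9.75 and 6.87, 6.97 and 7.2, a difference of 2.89 ± 0.31 (adjusted p = 5.81e-06). The lowest mandible array was more than 2 units above the highest maxilla array for both. Dlx1as, a transcript antisense to Dlx1, showed the largest mandible excess of all genes named here, with 9.85, 10.23 and 9.49 against 5.16, 4.63 and 5.54 (4.75 ± 0.56, adjusted p = 1.2e-05); whether its probe set also reads Dlx1 was not tested.

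The remaining lower jaw genes were mixed. Pitx1, a homeobox gene of the mandibular arch, measured 11.26, 11.34 and 11.17 in the mandible and 9.99, 9.86 and 9.97 in the maxilla (1.32 ± 0.33, adjusted p = 0.00433). Hand1, the relative of Hand2, was dim and close between jaws (0.32 ± 0.12, adjusted p = 0.0446), and its call was kept in only 7 of 16 alternative settings (highest adjusted p = 0.209; lost without the filter on low values, with quantile normalization, with trend and robust eBayes, with Xist as a covariate and without any 1 of the arrays other than maxilla 1). Gsc, a homeobox target of endothelin signalling, was at 9.67, 9.95 and 9.65 against 9.32, 9.55 and 9.47 without overlap, but its difference of 0.31 ± 0.55, with a standard error drawn from all 8 groups of the fit, did not pass (adjusted p = 0.702). Isl1, a LIM homeobox gene of the distal arch that is also active in sensory neurons, ran the other way, at 6.85, 7.78 and 9.34 in the mandible and 9.35, 9.9 and 9.38 in the maxilla (-1.55 ± 0.44, adjusted p = 0.0111; not called without mandible 1 or with only the arrays compared, at most 0.0895). Mandible 3 lay just below the maxilla arrays and far above the other mandible arrays.

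Of 15 upper jaw patterning genes, 2 were higher in the mandible (Dlx1 and Dlx2), 3 were higher in the maxilla and 10 were not called, and the list median was 0.11. The share called was 33.3%, close to the 33.6% of all genes, and nothing is read from the count. The 3 were Rarb, a retinoic acid receptor (9.63, 9.66 and 9.76 against 10.91, 10.68 and 10.68, -1.08 ± 0.21, adjusted p = 0.000822), Foxc1, a forkhead factor of head mesenchyme (10.04, 10.34 and 10.21 against 11.6, 11.22 and 11.59, -1.27 ± 0.3, adjusted p = 0.0028), and Foxd1 (-1.29 ± 0.39, adjusted p = 0.0152). The call for Foxd1 was lost without maxilla 1, maxilla 3 or mandible 1 (highest adjusted p = 0.0934). The nuclear receptor genes Nr2f1 and Nr2f2, which promote upper jaw identity, did not pass. Nr2f1 measured 10.93, 11.33 and 11.19 in the mandible and 11.13, 11.01 and 10.96 in the maxilla (0.11 ± 0.38, adjusted p = 0.85), and Nr2f2 0.15 ± 0.18 (adjusted p = 0.571). Pou3f3, a POU factor of the maxillary arch, stood at 0.41 ± 0.34 (adjusted p = 0.395). The Iroquois genes Irx1, Irx2, Irx3 and Irx5 stood at 0.13, 0.49, -0.26 and 0.071, the homeobox cofactors Meis1 and Meis2 at -0.5 and -0.27, and the Notch ligand Jag1 at 0.19, with adjusted p from 0.183 to 0.852 (2 of 3 probe sets of Meis1 and 3 of 4 of Meis2 had the direction given).

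Frontonasal factors were higher in the maxilla or not called, and palate shelf factors were called in both directions or not called. Of 8 frontonasal genes 4 were higher in the maxilla and 0 in the mandible, with a median of -0.99. Alx1, a homeobox gene of frontonasal and periocular mesenchyme, measured 7.25, 7.8 and 6.09 in the mandible and 11.38, 11.86 and 11.81 in the maxilla. The maxilla arrays lay more than 3 units above every mandible array, a difference of -4.64 ± 0.48 (adjusted p = 4.14e-06). Pax3, a paired box gene of neural crest and muscle progenitors, differed by -1.66 ± 0.38 (adjusted p = 0.00229), Sp8, a zinc finger factor of nasal epithelium, by -5.43 ± 0.89 (adjusted p = 0.000161) and Six2 by -0.76 ± 0.26 (adjusted p = 0.0288), the last not called without maxilla 1, 2 or 3 or mandible 1 or 3 (highest adjusted p = 0.0815). Of 15 palate shelf genes 7 were higher in the mandible and 1 in the maxilla, 7 were not called, and the median was 0.38. Meox2, a homeobox gene of palate mesenchyme and muscle, measured 11.49, 11.04 and 11.6 against 8.54, 8.68 and 8.27 (2.88 ± 0.49, adjusted p = 0.000227), Sim2 2.65 ± 0.6 (adjusted p = 0.00227) and Shox2 1.66 ± 0.25 (adjusted p = 8.53e-05). Barx1, a homeobox gene of molar and stomach mesenchyme, was at 1.73 ± 0.56 (adjusted p = 0.0218) and was not called without maxilla 2 or 3 or mandible 1 or 2 (highest adjusted p = 0.0716). The single palate gene higher in the maxilla was Tbx22, whose loss causes cleft palate, at 7.0, 7.04 and 6.8 against 9.3, 9.53 and 8.6 (-2.19 ± 0.45, adjusted p = 0.00108), the mandible arrays being near or below the array median.

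Among 19 neural crest and jaw mesenchyme factors 6 were higher in the mandible and 3 in the maxilla (median 0.37). Lhx8 and Lhx6, LIM homeobox genes of oral and tooth-forming mesenchyme, differed by 2.91 ± 0.39 and 1.89 ± 0.43 (adjusted p = 3.12e-05 and 0.00224). For Lhx8 the mandible arrays were tight at 10.86, 10.95 and 10.62 and the maxilla arrays spread over 8.14, 8.8 and 6.75. Foxf1, a forkhead target of hedgehog signalling, stood at 1.86 ± 0.49 (adjusted p = 0.00692). The 3 higher in the maxilla were Foxc2 (-1.3 ± 0.42, a forkhead factor), Sox9 (-1.22 ± 0.4, the factor of cartilage) and Sox10 (-0.53 ± 0.19, a factor of glia and pigment cells), the last named after its values were seen. Of these, 0 were called without maxilla 1, maxilla 3 or mandible 1, and 1 without mandible 3. Of 5 Hox genes tested, which are normally silent in the first arch, 1 was called (20%, beside 33.6% of all genes), and nothing is read from this count. It was Hoxa3 (0.44 ± 0.12, adjusted p = 0.00977, 3 of 4 probe sets), with signals around the array median. Hoxa3 was not called without maxilla 3, where limma's adjusted p was 0.0709. The pieces also differed in muscle, bone and nasal marker genes, given next, and the part of those tissues in the patterning differences was not tested.

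**Figure D2:**
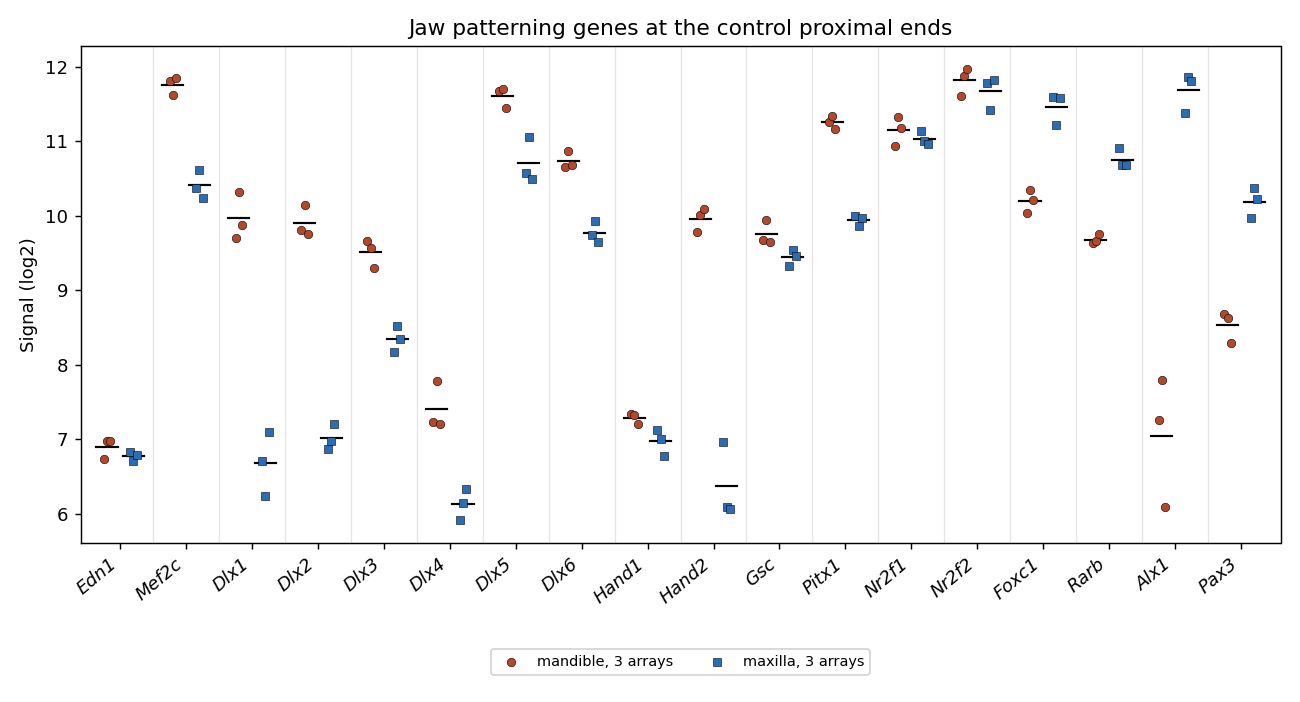
Log2 signal of 18 jaw patterning genes in each control proximal array, mandible as red circles and maxilla as blue squares, with a line at each group's mean. Hand2, Dlx1 and Dlx2 lie higher in all 3 mandible arrays, Alx1, Pax3, Foxc1 and Rarb lie higher in all 3 maxilla arrays, and Edn1, Nr2f1 and Nr2f2 overlap.

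Skeletal muscle genes were higher in the mandible almost throughout. Of 37 contractile genes tested 36 were higher in the mandible and 0 in the maxilla, with a median difference of 3.09. The list mean was 10.68, 9.57 and 11.05 in the mandible and 7.51, 7.15 and 8.18 in the maxilla, so array 2 was the lowest of its group in both jaws and the groups did not overlap. Myh8, the perinatal myosin heavy chain, measured 10.84, 9.49 and 11.26 in the mandible and 6.29, 5.38 and 7.67 in the maxilla. Its difference was 4.08 ± 1.12 (adjusted p = 0.00839), with the maxilla mean below the array median. Neb, the giant filament protein nebulin, differed by 3.81 ± 0.87, Smpx, a small protein of striated muscle, by 3.8 ± 0.92 and Actn2, the Z-disc protein alpha-actinin, by 3.55 ± 0.87 (adjusted p = 0.00245, 0.00361 and 0.00382). Myh1, a fast adult myosin, was at background in the maxilla (4.22, 4.11 and 4.24) and measured 7.5, 6.97 and 8.64 in the mandible (3.51 ± 0.57, adjusted p = 0.000147). The troponin gene Tnnt3 and Myot, encoding the sarcomere protein myotilin, differed by 3.51 ± 0.8 and 3.38 ± 0.72. Ttn, encoding titin, was at 3.76 ± 1.05 (adjusted p = 0.00929, 5 of 6 probe sets; 0.0538 without maxilla 2), and Tnnc2, the fast troponin C, at 3.4 ± 1.0 (adjusted p = 0.013; at most 0.0545, without maxilla 2 or mandible 3).

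Regulators of muscle formation followed the contractile genes. Of 16 tested 10 were higher in the mandible and 3 in the maxilla, with a median of 1.30. Myog, the myogenin factor that drives differentiation, measured 12.18, 11.42 and 12.54 in the mandible and 8.74, 8.8 and 9.3 in the maxilla (3.1 ± 0.68, adjusted p = 0.00177). Myod1 and Myf5, the factors that commit cells to muscle, differed by 2.92 ± 0.51 (adjusted p = 0.00028) and 2.42 ± 0.53 (adjusted p = 0.00185). Mymx and Mymk, membrane proteins that fuse myoblasts, differed by 3.53 ± 0.76 and 2.51 ± 0.57 (adjusted p = 0.00157 and 0.00219). Every mandible array was above every maxilla array for these 5 genes, while 98.5% of all genes called and 51.7% of all tested had no overlap. Vgll2, a TEAD cofactor of developing muscle, was at 10.81, 10.21 and 11.17 against 7.0, 7.26 and 6.91 (3.67 ± 0.71, adjusted p = 0.000675), and Tceal7 differed by 3.64 ± 0.9. The 3 higher in the maxilla were Pax3, described above, and, named after their values were seen, Met, the receptor that guides muscle precursors (-0.95 ± 0.23), and Six4 (-0.58 ± 0.22).

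The sequences before 2 muscle genes are shown because myogenic factors bind E-boxes, written CANNTG, and the CAGCTG form in particular. In the RefSeq window of 250 bases before Myog (GRCm38.p6, chr1:134289754-134290003, plus strand) capitals mark CANNTG. In that before Chrna1, the muscle acetylcholine receptor alpha subunit (chr2:73580339-73580588, minus strand), capitals mark CAGCTG. Chrna1 was chosen after its values were seen, as the called contractile gene with the most CAGCTG matches.
Myog: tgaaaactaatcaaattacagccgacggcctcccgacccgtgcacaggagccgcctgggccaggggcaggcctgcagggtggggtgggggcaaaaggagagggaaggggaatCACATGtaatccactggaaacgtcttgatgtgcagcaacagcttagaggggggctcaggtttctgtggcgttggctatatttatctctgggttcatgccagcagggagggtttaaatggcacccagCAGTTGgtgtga
Chrna1: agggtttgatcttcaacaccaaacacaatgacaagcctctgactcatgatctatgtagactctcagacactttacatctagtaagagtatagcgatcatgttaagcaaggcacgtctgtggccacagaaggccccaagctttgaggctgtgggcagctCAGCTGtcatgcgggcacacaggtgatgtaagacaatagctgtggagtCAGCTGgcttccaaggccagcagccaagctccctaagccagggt
Both motifs read the same on either strand, and CAGCTG is 1 form of CANNTG. Myog held CACATG 138 bases and CAGTTG 12 bases before the start, and no CAGCTG. Chrna1 held CAGCTG 92 and 44 bases before the start, and its signal was 9.95, 9.07 and 10.38 in the mandible and 7.01, 6.84 and 7.25 in the maxilla (2.77 ± 0.56, adjusted p = 0.000924). Among called contractile genes 32 of 36 had a window, with 36 windows in all, of which 18 (50%) held CAGCTG and 30 (83.3%) CANNTG. Over all 32851 windows the shares were 13% and 66.2%. For the called myogenic regulators 1 of 9 windows (11.1%) held CAGCTG. Among other called lists, osteoblast genes held CAGCTG in 5 of 12 windows (41.7%) and CANNTG in 10 (83.3%). Neurogenic genes held CAGCTG in 3 of 11 (27.3%) and olfactory genes in 0 of 14. The endothelin, Dlx and Hand genes held it in 0 of 5. A high CAGCTG share was therefore not particular to muscle genes. These shares describe letters only and were not tested.

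Tendon genes were higher in the mandible too. Of 16 tendon and ligament genes 9 were higher there and 0 in the maxilla, with a median of 0.74. Thbs4, a matrix protein of muscle and tendon attachments, measured 11.28, 10.55 and 11.11 in the mandible and 7.67, 6.45 and 6.66 in the maxilla (4.06 ± 0.62, adjusted p = 9.24e-05), the third largest mandible excess among the genes named. Fibin, Tnmd (tenomodulin, a membrane protein of mature tendon cells), Kera (the proteoglycan keratocan) and Mkx (a homeobox factor of tendon) differed by 1.84 ± 0.19, 1.77 ± 0.28, 1.75 ± 0.45 and 1.49 ± 0.3, with adjusted p from 4.14e-06 to 0.00603. The list mean was 11.35, 11.13 and 11.22 in the mandible and 10.27, 10.07 and 10.13 in the maxilla.

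Bone genes were strongly expressed in both jaws and higher in the mandible. Of 15 osteoblast genes 13 were higher in the mandible and 0 in the maxilla (median 1.69). Dmp1, a matrix protein made by osteocytes and late osteoblasts, measured 13.07, 12.45 and 12.19 in the mandible and 11.11, 9.6 and 8.97 in the maxilla (2.68 ± 0.54, adjusted p = 0.000928). Phex, a phosphate-regulating peptidase of the same cells, measured 11.67, 11.21 and 11.01 and 9.46, 8.88 and 7.53 (2.67 ± 0.53, adjusted p = 0.000807). Maxilla 3 was the lowest array for both genes. Their groups did not overlap, as for 98.5% of all genes called and 51.7% of all tested. Ifitm5, a membrane protein of osteoblasts, differed by 2.51 ± 0.4 (adjusted p = 0.000121) and Panx3, a channel of bone and cartilage, by 2.15 ± 0.29 (adjusted p = 3.16e-05). Mmp13, a collagenase of bone and hypertrophic cartilage, ranged over 8.5, 9.97 and 5.75 in the maxilla and stood at 12.12, 11.09 and 11.15 in the mandible (3.38 ± 0.88, adjusted p = 0.00601).

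Osteoclast genes had the same direction. Of 11 measured 7 were tested, and the others were below the array median in both jaws. Of the 7, 6 were higher in the mandible and 0 in the maxilla (median 2.10), a share partly set by the filter. The list means were 10.44, 10.02 and 10.01 in the mandible and 8.34, 8.77 and 7.83 in the maxilla. Acp5, the acid phosphatase of osteoclasts, measured 11.15, 10.2 and 10.48 in the mandible and 8.29, 8.79 and 7.19 in the maxilla (2.52 ± 0.42, adjusted p = 0.000201). The proton pump subunit Atp6v0d2 differed by 2.53 ± 0.32, the gelatinase Mmp9 by 2.1 ± 0.3 and the fusion protein Dcstamp by 1.7 ± 0.21 (adjusted p = 2.23e-05, 4.95e-05 and 1.44e-05). Tnfsf11, the RANKL ligand that induces osteoclasts, measured 8.69, 8.66 and 8.65 and 6.0, 7.38 and 5.76 (2.29 ± 0.37, adjusted p = 0.000159). For all 5 genes the groups did not overlap, as for 98.5% of all genes called and 51.7% of all genes tested.

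Cartilage genes did not share this direction and varied among arrays of a jaw. Of 25 tested 3 were higher in the mandible, 3 in the maxilla and 19 were not called, with a median of -1.22. The share called was 24%, below the 33.6% of all genes, and nothing is read from the count. The list mean was 10.64, 10.85 and 9.27 in the mandible and 11.54, 10.39 and 11.47 in the maxilla, with mandible 3 the lowest array and maxilla 2 inside the range of the mandible. Matn4, a cartilage matrix protein, was at 10.23, 10.74 and 9.23 against 12.5, 11.43 and 12.49 (-2.08 ± 0.74, adjusted p = 0.0364), and Sox5, a cofactor of Sox9, at -1.81 ± 0.63 (adjusted p = 0.0321, 5 of 7 probe sets). The count higher in the maxilla, which is these and Sox9, was 0 without maxilla 1, maxilla 3, mandible 1 or mandible 3 (highest adjusted p = 0.146 for Matn4, 0.148 for Sox5 and 0.0959 for Sox9). The 3 genes higher in the mandible were Pth1r, the parathyroid hormone receptor of chondrocytes and osteoblasts (12.31, 11.72 and 11.7 against 10.58, 10.36 and 10.3, 1.5 ± 0.16, adjusted p = 6.59e-06), the collagen receptor Itga10 (1.35 ± 0.32) and Ihh, the hedgehog ligand of hypertrophic cartilage (1.23 ± 0.14, adjusted p = 1.13e-05), the last below the array median in the maxilla.

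Of 22 tooth germ genes 13 were higher in the mandible and 1 in the maxilla (median 0.60; the 1 was not called without maxilla 3 or mandible 1), and the 13 became 7 without maxilla 1 and 8 without mandible 1. Ambn, the enamel matrix protein ameloblastin, measured 9.81, 9.39 and 9.39 in the mandible and 6.96, 6.98 and 6.24 in the maxilla (2.8 ± 0.4, adjusted p = 5.43e-05). Shh, the hedgehog ligand of dental and oral epithelium, measured 9.67, 9.48 and 9.98 and 6.23, 7.46 and 8.16 (2.43 ± 0.47, adjusted p = 0.0007), with maxilla 3 closest to the mandible. Dkk1, a secreted Wnt inhibitor, stood at 1.85 ± 0.25 (adjusted p = 3.35e-05). Lhx8 and Lhx6, described above, belong to this list as well.

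Most genes of the nasal lining were higher in the maxilla, many of them near background in the mandible, and the largest difference of the comparison was among them. Of 17 nasal gland and respiratory epithelium genes measured 12 were tested, and the others were below the array median in both jaws. Of the 12, 9 were higher in the maxilla and 1 in the mandible (median -3.71), a share partly set by the filter. The 1, Ltf, a secreted protein of glands and neutrophils, was not called without maxilla 1 or 3 or mandible 1 or 3. The list mean was 6.4, 6.43 and 6.6 in the mandible, below the array medians, and 9.42, 9.98 and 9.64 in the maxilla. Cyp2f2, Krt7 and Aldh1a3, named here after their values were seen, were higher in the maxilla (-3.47, -1.53 and -0.84). Their mandible means were above the array median too. Bpifa1, a secreted protein of nasal glands and airway epithelium, measured 5.34, 5.18 and 5.57 in the mandible and 13.01, 13.72 and 13.12 in the maxilla. This difference of -7.92 ± 1.51 (adjusted p = 0.000602) was the largest of all genes named. Sult1e1 and Sult1d1, sulfotransferases, differed by -5.9 ± 0.97 and -5.12 ± 0.82, Cldn9, a tight junction claudin, by -5.65 ± 0.94, Reg3g, a secreted antibacterial lectin, by -4.41 ± 1.04 and Serpinb11 by -5.79 ± 0.87 (adjusted p from 7.71e-05 to 0.00298).

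Ciliated cell genes were also higher in the maxilla. Of 15 measured 10 were tested, and the others were below the array median in both jaws. Of the 10, 9 were higher in the maxilla and 0 in the mandible (median -2.52), a share partly set by the filter. The list means were 6.32, 6.38 and 6.39 in the mandible and 8.89, 8.7 and 9.06 in the maxilla. Foxj1, the master regulator of motile cilia, measured 5.44, 5.42 and 5.36 in the mandible and 9.68, 9.19 and 9.87 in the maxilla (-4.17 ± 0.95, adjusted p = 0.00237). The dynein subunit Dynlrb2 differed by -5.58 ± 1.19, the radial spoke genes Rsph1 and Rsph4a by -3.08 ± 0.66 and -2.95 ± 0.71, and the axonemal gene Tekt1 by -2.89 ± 0.67 (adjusted p from 0.00146 to 0.0035). In the mandible all 5 genes were below the array median. Cfap126, Mlf1 and Tekt2, also called and named after their values were seen, were above it in both jaws.

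Of 18 olfactory epithelium genes measured 17 were tested. Of the 17, 13 were higher in the maxilla and 0 in the mandible (median -2.04), a share partly set by the filter. Otx2, a homeobox gene of anterior neural and sensory tissue, measured 4.01, 4.24 and 4.07 in the mandible and 11.14, 10.65 and 10.76 in the maxilla (-6.75 ± 1.19, adjusted p = 0.000312). Lhx2, a LIM homeobox gene of olfactory progenitors, measured 5.7, 5.31 and 6.28 and 11.73, 11.2 and 11.37 (-5.67 ± 0.87, adjusted p = 9.31e-05). Cyp2g1, a cytochrome of olfactory mucosa, differed by -3.98 ± 0.7 and the cytoskeletal gene Ermn by -4.9 ± 0.84 (adjusted p = 0.000308 and 0.000233). The mandible arrays spanned less than 1 unit for each of these genes. The olfactory list mean was 6.99, 7.11 and 7.14 in the mandible and 9.85, 9.69 and 9.64 in the maxilla.

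Factors of neuron formation formed a second block. Of 15 neurogenic factors measured 11 were tested, and the others were below the array median in both jaws. Of the 11, 10 were higher in the maxilla and 0 in the mandible (median -1.27), a share partly set by the filter. Neurod1, Insm1, Nhlh2 and Nhlh1 had mandible means below the array median. Neurod1, a basic helix-loop-helix factor of differentiating neurons, measured 4.85, 4.89 and 5.05 in the mandible and 11.22, 11.37 and 11.32 in the maxilla (-6.37 ± 1.01, adjusted p = 0.000125). Its RefSeq window of 250 bases before the start (GRCm38.p6, chr2:79456637-79456886, minus strand) is shown as the neurogenic gene with the largest difference, with capitals marking CANNTG, the E-box that such factors bind.
Neurod1: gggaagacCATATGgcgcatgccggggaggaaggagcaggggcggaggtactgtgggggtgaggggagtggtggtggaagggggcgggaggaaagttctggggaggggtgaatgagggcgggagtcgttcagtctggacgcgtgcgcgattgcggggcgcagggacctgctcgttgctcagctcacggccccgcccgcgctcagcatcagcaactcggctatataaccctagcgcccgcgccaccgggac
It held 1 match, CATATG, 242 bases before the start. Of 11 windows from 9 of the 10 called neurogenic genes, 7 (63.6%) held CANNTG, against 66.2% of all windows. Insm1, a zinc finger factor of neural progenitors, measured 4.93, 4.88 and 5.74 and 11.51, 11.39 and 11.53 (-6.3 ± 1.07, adjusted p = 0.000226). Nhlh2 and Nhlh1, helix-loop-helix factors of young neurons, differed by -6.04 ± 1.03 and -3.43 ± 0.52 (adjusted p = 0.000226 and 8.19e-05). Sox2, a factor of neural and sensory progenitors and of oral epithelium, was bright in both jaws (9.05, 8.97 and 9.4 against 11.71, 11.82 and 11.54, -2.55 ± 0.49, adjusted p = 0.000675). The homeobox gene Uncx, the glial and neural factor Olig1, Fstl5 and Fam107a also stood among the 15 largest maxilla excesses, at -5.39, -5.4, -5.7 and -5.51.

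General neuron genes were higher in the maxilla for 18 of 21 tested and higher in the mandible for 0 (median -1.53). Their list mean was 7.58, 7.94 and 9.1 in the mandible and 10.33, 10.03 and 10.03 in the maxilla, and mandible 3 lay above the other 2 mandible arrays. Stmn2, a tubulin-binding protein of growing axons, showed this at 7.97, 8.89 and 10.77 in the mandible against 12.64, 12.49 and 12.43 in the maxilla (-3.31 ± 0.58, adjusted p = 0.000282). Elavl4 and Elavl3, RNA-binding proteins of neurons, differed by -4.19 ± 0.65 and -3.29 ± 0.53 (adjusted p = 0.000106 and 0.000138), Stmn3 by -3.86 ± 0.8 and Rtn1 by -3.34 ± 0.63. Of 12 genes of trigeminal and sensory ganglia measured 5 were tested, and the others were below the array median in both jaws. Of the 5, 4 were higher in the maxilla, and 2 without mandible 1. Prph, the filament protein peripherin, was at 6.63, 7.49 and 9.62 against 11.13, 10.52 and 10.5 (-2.8 ± 0.78, adjusted p = 0.00898, 2 of 4 probe sets; 0.0630 without mandible 1). Runx1, used in sensory neurons and blood, was at -1.26 ± 0.3 (adjusted p = 0.00354, 5 of 6 probe sets). Of 15 forebrain genes measured 7 were tested, and the others were below the array median in both jaws. Of the 7, 4 were higher in the maxilla and 0 in the mandible. Among the genes called, Pax6, Six3 and Fabp7 also stand on other lists here. Pax6, a paired box gene of eye, olfactory tissue and forebrain, measured 5.66, 5.62 and 5.7 in the mandible and 10.34, 9.91 and 10.22 in the maxilla (-4.5 ± 0.56, adjusted p = 1.71e-05, 4 of 5 probe sets), and Six3 stood at -2.04 ± 0.4 (2 of 3 probe sets).

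Epithelial genes did not share a direction. Of 28 epidermal and oral epithelial genes 8 were higher in the maxilla and 5 in the mandible (median -0.07). Those higher in the maxilla included keratins of simple epithelium, Krt8 (8.87, 9.27 and 10.07 against 12.43, 12.67 and 12.53, -3.14 ± 0.57, adjusted p = 0.000424) and Krt18 (-2.94 ± 0.56), the junction protein Cldn7 (-3.65 ± 0.74) and the adhesion molecule Epcam (-2.15 ± 0.32, adjusted p = 7.39e-05). Sprr1a, a protein of the cornified envelope, was at 5.9, 5.79 and 6.1 against 7.48, 8.07 and 10.29 (-2.69 ± 0.92, adjusted p = 0.0311), with maxilla 3 the highest, and was not called without maxilla 3 or any of the mandible arrays or with Xist as a covariate (highest adjusted p = 0.170). The list mean was 9.09, 8.93 and 9.45 in the mandible and 8.94, 9.3 and 10.46 in the maxilla. The 5 higher in the mandible, named after their values were seen, were the keratins of stratified epithelium Krt5 (1.36 ± 0.42), Krt13 (1.93 ± 0.65), Krt15 (1.15 ± 0.34) and Krt17 (1.44 ± 0.45) and the desmosomal gene Dsc3 (1.36 ± 0.31). The count higher in the mandible was 1 without maxilla 1 or without mandible 1, 3 without maxilla 2 or mandible 3, and 8 without maxilla 3. Of 18 salivary gland genes measured, many of which other glands share, 12 were tested. The others were below the array median in both jaws. Of the 12, 6 were higher in the maxilla and 3 in the mandible (median -0.89), a share partly set by the filter. Elf5 and Ehf, ETS factors of glandular epithelium, differed by -4.57 ± 0.74 and -3.71 ± 0.84 (adjusted p = 0.000142 and 0.00224, 3 of 4 probe sets for Ehf), the keratins Krt19 and Krt7 by -1.75 ± 0.39 and -1.53 ± 0.37, and the water channel Aqp5 by -1.37 ± 0.23.

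**Figure D3:**
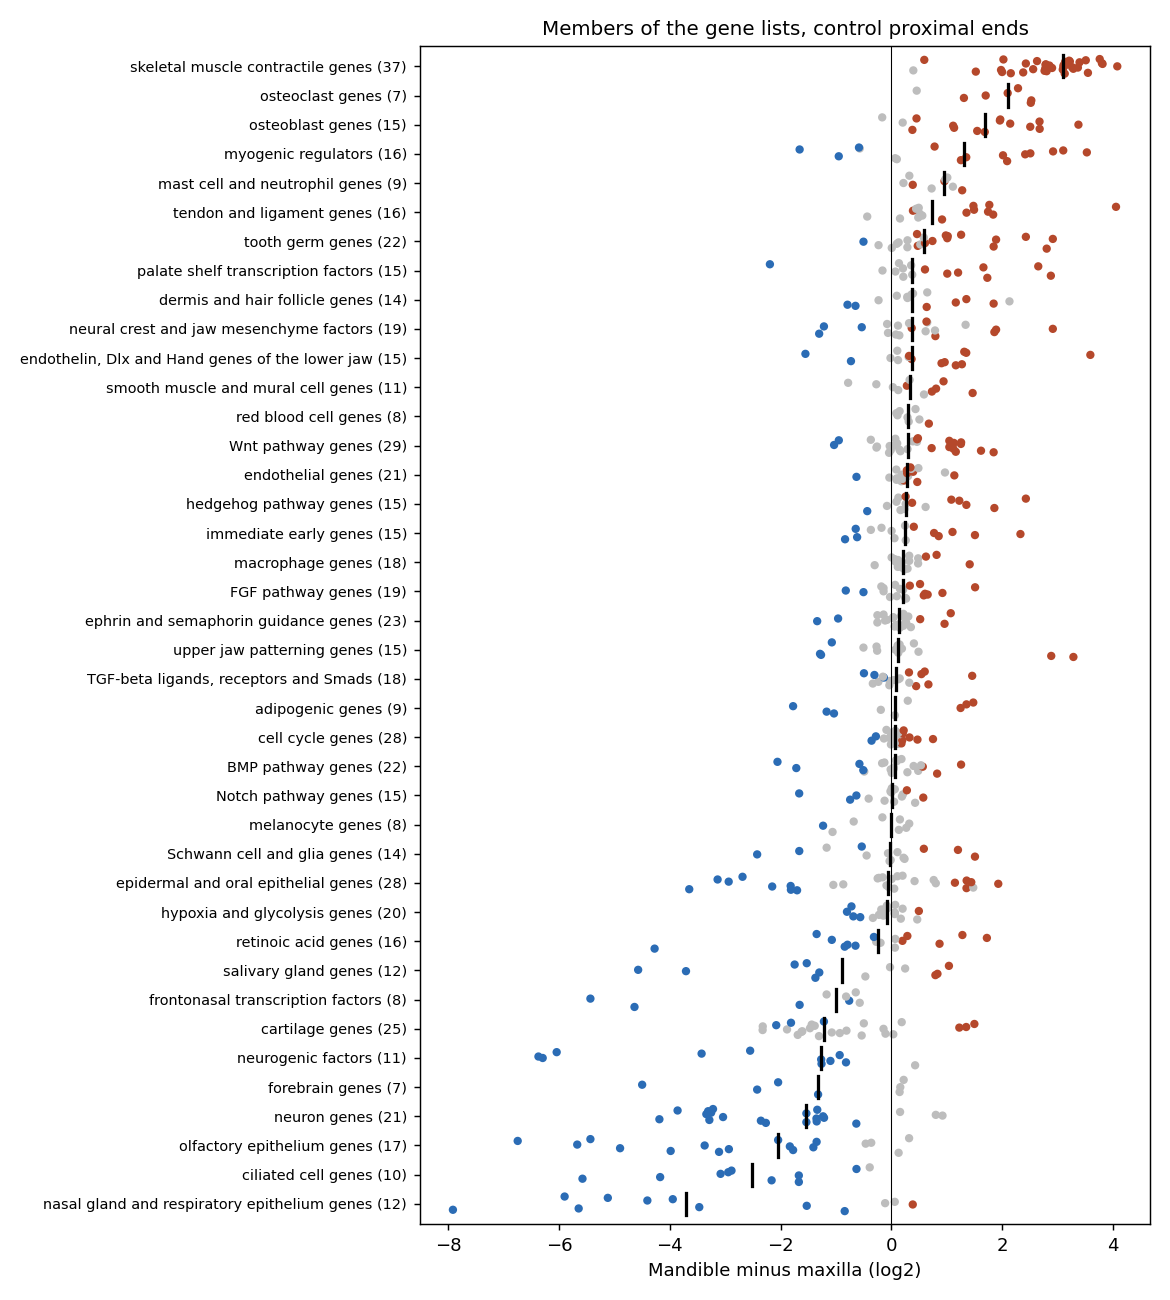
Jaw difference (mandible minus maxilla, log2) of each tested member of the gene lists with at least 7 tested genes, with the number tested in parentheses, red where higher in the mandible, blue where higher in the maxilla and grey where not called; the black bar is the list median. Medians run from -3.71 (nasal gland and respiratory epithelium genes) to 3.09 (skeletal muscle contractile genes).

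Of the endothelial list 42.9% were called and of the smooth muscle list 45.5%, beside 33.6% of all genes, and most of these calls were higher in the mandible. The macrophage (16.7%), red blood cell (12.5%) and mast cell and neutrophil (33.3%) shares were at or below that of all genes, and nothing is read from them. Of 21 endothelial genes 8 were higher in the mandible and 1 in the maxilla (median 0.28), and the 8 became 5 without maxilla 2 or mandible 1 and 4 without maxilla 3 or mandible 3. Esm1, a secreted protein of sprouting vessels, differed by 1.14 ± 0.17 (adjusted p = 7.35e-05), Pecam1, an adhesion protein of vessels, by 0.39 ± 0.1 and the endothelial factor Erg by -0.63 ± 0.15 in the other direction (adjusted p = 0.00345). Of 11 smooth muscle and mural cell genes 5 were higher in the mandible and 0 in the maxilla, and the 5 became 3 without maxilla 2, maxilla 3 or mandible 3 and 2 without mandible 1, while the 0 became 1 without maxilla 2, maxilla 3 or mandible 2. Acta2, smooth muscle actin and also a gene of immature skeletal muscle, was at 1.47 ± 0.34 (adjusted p = 0.0028) and Smtn at 0.94 ± 0.16. Macrophage genes were higher in the mandible for 3 of 18 tested and 1 without maxilla 1, maxilla 3, mandible 1 or mandible 3; Cd68, a lysosomal protein of macrophages and osteoclasts, was at 1.41 ± 0.25 (adjusted p = 0.000287). Mast cell and neutrophil genes were higher in the mandible for 3 of 9, the neutrophil granule genes Camp, Ngp and Ltf (1.28, 0.96 and 0.39), a count that ranged from 0 to 1 without any 1 array other than mandible 2. Red blood cell genes gave 1 of 8, Alas2 (0.68 ± 0.18), or 2 without maxilla 2.

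Of the Schwann cell and glia genes 42.9% were called, beside 33.6% of all genes, and of the melanocyte, lens and inner ear lists 12.5%, 16.7% and 20.0%. Schwann cell and glia genes gave 3 in each direction of 14: Egr2, a factor of myelination and an immediate early gene, and the neurotrophin receptor Ngfr were higher in the mandible (1.51 ± 0.21 and 1.2 ± 0.17), and the lipid carrier Fabp7 in the maxilla (-2.42 ± 0.6, adjusted p = 0.00428). Mbp, encoding myelin basic protein, was at -1.66 ± 0.2, but only 2 of its 8 probe sets had this direction and the mean of its probe sets was not called (adjusted p = 0.509). Of 8 melanocyte genes 1 was called, the receptor Kit (-1.23 ± 0.15, higher in the maxilla), and of 5 inner ear genes 1, Coch (-2.19 ± 0.35, higher in the maxilla; without maxilla 2 the maxilla was higher for 2 and the mandible for 1, and without mandible 2 the mandible was higher for 1). Pax6 was the only 1 of 6 lens and retina genes called.

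**Figure D4:**
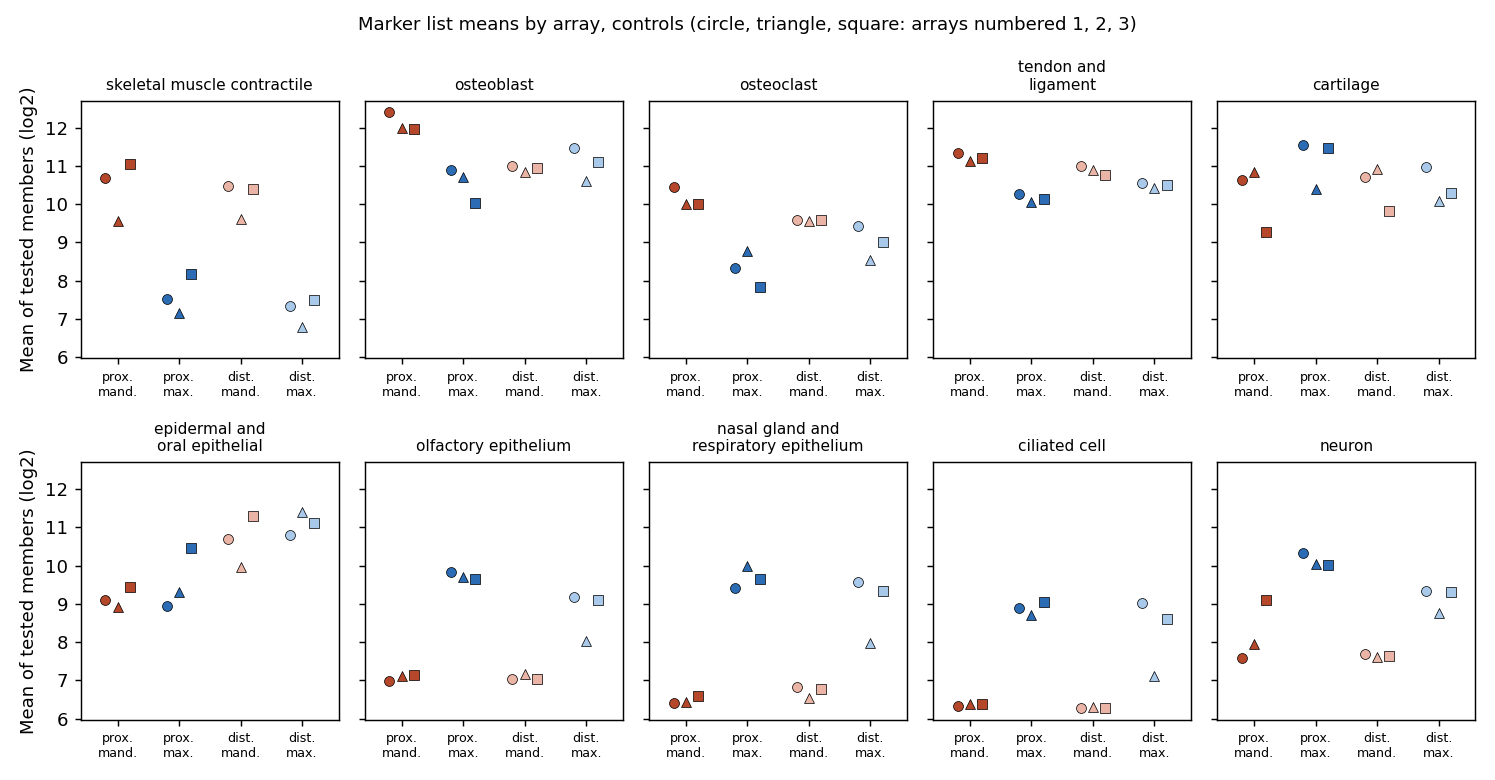
Mean log2 signal over the tested members of 10 marker lists in each control array, grouped by end and jaw, with circles, triangles and squares for arrays 1, 2 and 3. At the proximal ends muscle, osteoblast, osteoclast and tendon means are higher in every mandible array, nasal, ciliated and olfactory means are higher in every maxilla array, and cartilage and epidermal means overlap.

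Signalling pathways followed, with ligands and receptors differing gene by gene. Of the TGF-beta list 50% and of the BMP list 31.8% were called, beside 33.6% of all genes, and nothing is read from the BMP count. Of 18 TGF-beta ligands, receptors and Smads 6 were higher in the mandible and 3 in the maxilla (median 0.08). The ligand Tgfb1 measured 9.87, 9.02 and 9.13 in the mandible and 8.08, 7.91 and 7.66 in the maxilla (1.46 ± 0.22, adjusted p = 7.71e-05), and Tgfb3 differed by 0.54 ± 0.091 (adjusted p = 0.000198). Itgav, the integrin subunit that releases latent TGF-beta, stood at 0.67 ± 0.078 (adjusted p = 1.08e-05). The type I receptor Tgfbr1 was higher in the maxilla (12.03, 12.19 and 12.12 against 12.67, 12.6 and 12.55, -0.5 ± 0.11, adjusted p = 0.00145). The co-receptor Tgfbr3 was at 0.6 ± 0.23 (adjusted p = 0.0484) and was not called without any 1 of the 6 arrays or without the filter on low values (highest adjusted p = 0.164). Of 22 BMP genes 3 were higher in the mandible and 4 in the maxilla (median 0.06). Id4 and Id1, helix-loop-helix targets of BMP signalling, were higher in the maxilla (-2.06 ± 0.23 and -0.58 ± 0.13, adjusted p = 7.25e-06 and 0.00171), as was the receptor Bmpr1b (-1.72 ± 0.32), while the antagonist Grem1 (1.26 ± 0.21) and the decoy receptor Bambi (0.83 ± 0.21) were higher in the mandible.

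Hedgehog and Wnt genes leaned toward the mandible, with 53.3% and 48.3% called, beside 33.6% of all genes. Of 15 hedgehog genes 7 were higher in the mandible and 1 in the maxilla (median 0.26). Besides the ligands Shh and Ihh these included readouts of signalling: Gli1, a transcription factor induced by the pathway, measured 9.6, 9.32 and 9.34 in the mandible and 8.06, 8.01 and 8.12 in the maxilla (1.35 ± 0.15, adjusted p = 8.18e-06), and Ptch1, the receptor and feedback target, 12.25, 12.18 and 11.99 and 11.1, 11.08 and 11 (1.08 ± 0.12, adjusted p = 7.25e-06). Hhip, also a target of the pathway and named after its values were seen, was not called (0.09, adjusted p = 0.707). Of 29 Wnt genes 12 were higher in the mandible and 2 in the maxilla (median 0.29), the 2 becoming 1 without maxilla 3 or mandible 1. The 5 largest were the secreted inhibitors Dkk1, Frzb (1.62 ± 0.31), Sfrp4 (1.26 ± 0.29) and Dkk2 (11.51, 11.57 and 11.53 against 10.41, 10.42 and 10.28, 1.16 ± 0.21, adjusted p = 0.000303) and the dental ligand Wnt10a (1.26 ± 0.25). The readouts Axin2, Nkd1 and Lef1, named after their values were seen, were not called (-0.04, -0.27 and 0.29).

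FGF, retinoic acid and Notch genes were divided. Of the FGF list 47.4%, of the retinoic acid list 75%, of the Notch list 33.3% and of the guidance list 21.7% were called, beside 33.6% of all genes. Nothing is read from the Notch and guidance counts. Of 19 FGF genes 7 were higher in the mandible and 2 in the maxilla, and the 7 became 4 without maxilla 1 or maxilla 3 and 3 without mandible 3, and the 2 became 1 without maxilla 3 or mandible 1. Fgfr4, a receptor of developing muscle, differed by 1.51 ± 0.32 (adjusted p = 0.00133), the mesenchymal ligand Fgf7 by 0.92 ± 0.23 and the FGF-binding protein Fgfbp3 by -0.82 ± 0.13 toward the maxilla. Of 16 retinoic acid genes 5 were higher in the mandible (3 without maxilla 1, maxilla 2 or mandible 1) and 7 in the maxilla (median -0.23). Aldh1a1, a retinaldehyde dehydrogenase, measured 5.18, 5.34 and 6.36 in the mandible and 9.47, 10.12 and 10.11 in the maxilla (-4.27 ± 0.97, adjusted p = 0.00231). Stra6, the retinol uptake receptor, was at -1.35 ± 0.17 (adjusted p = 1.74e-05), and Rbp4, the carrier of retinol, at 1.72 ± 0.25 (adjusted p = 6.26e-05), so the uptake and transport genes had opposite directions. Of 15 Notch genes 2 were higher in the mandible and 3 in the maxilla; Mfng, a glycosyltransferase that modifies Notch, stood at -1.66 ± 0.21 (adjusted p = 1.83e-05) and the target Hey1 at -0.74 ± 0.19, while the 2 were not called without maxilla 2 or 3 or mandible 1 or 3. Of 23 ephrin and semaphorin guidance genes 3 were higher in the mandible, including the repellent Slit3 (1.07 ± 0.16) and the receptor Epha3 (0.96 ± 0.17), and 2 in the maxilla, including Ephb1 (-1.34 ± 0.23); the 3 became 6 without maxilla 2 and the 2 became 1 without mandible 1.

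Cell state lists gave calls in both directions. Cell cycle genes were called for 32.1% and hypoxia and glycolysis genes for 25%, below the 33.6% of all genes, and nothing is read from these counts. The shares were 60% for immediate early, 66.7% for adipogenic and 42.9% for dermis and hair follicle genes. Of 28 cell cycle genes 7 were higher in the mandible and 2 in the maxilla (median 0.06), the 7 becoming 4 without mandible 2 and the 2 becoming 1 without maxilla 1, maxilla 2 or mandible 1. The cyclins Ccne1 and Ccnd3 differed by 0.75 ± 0.092 and 0.47 ± 0.082 (adjusted p = 1.67e-05 and 0.000278, 2 of 3 probe sets for Ccnd3) and the kinase Cdk2 by 0.33 ± 0.068. Of 20 hypoxia and glycolysis genes 1 was higher in the mandible and 4 in the maxilla, and the 4 became 1 without maxilla 3 or mandible 2 and 2 without mandible 1, while the 1 was not called without maxilla 2 or mandible 1. Immediate early genes, which respond within minutes to handling and growth factors, were higher in the mandible for 6 of 15 and in the maxilla for 3 (median 0.25). Egr3 measured 9.44, 9.47 and 9.06 against 6.75, 6.92 and 7.31 (2.33 ± 0.38, adjusted p = 0.000163, 1 of 2 probe sets), Egr1 and Fosl2 were higher in the mandible by 0.85 ± 0.18 and 1.1 ± 0.19, and the antiproliferative gene Btg2 was higher in the maxilla (-0.84 ± 0.13). Of 9 adipogenic genes 3 differed in each direction, with the lipase Lpl (1.48 ± 0.3) and the inhibitor Dlk1 (1.25 ± 0.29) higher in the mandible and the factors Ebf2 (-1.77 ± 0.49) and Cebpb (-1.17 ± 0.28) higher in the maxilla. Of 14 dermis and hair follicle genes 4 were higher in the mandible and 2 in the maxilla, the latter being the retinoic acid binding proteins Crabp2 (-0.79 ± 0.15) and Crabp1 (-0.65 ± 0.16).

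At the distal ends of the controls 1129 genes were called (8.81%). Distal maxilla 2 stood apart from distal maxilla 1 and 3, with a nasal gland list mean of 7.97 against 9.57 and 9.34, a ciliated cell mean of 7.11 against 9.03 and 8.59, an olfactory mean of 8.03 against 9.19 and 9.09 and a neurogenic mean of 8.23 against 9.43 and 9.57. Without it 1109 genes were called, 827 of them among the 1129, and the share higher in the mandible was 27.5% in place of 35.0%. The distal count was 465 and 389 without distal maxilla 1 and 3, and 414, 702 and 626 without distal mandible 1, 2 and 3, settings chosen after seeing the data. Of these, 818 were also called at the proximal ends with the same direction, 19.0% of the proximal and 72.5% of the distal calls, and 22 were called with opposite directions. Whether a jaw difference itself depended on the end was tested as an interaction (proximal difference minus distal difference), which was called for 514 genes (4.01%), 372 positive and 142 negative. Of the 514, 411 were called between the jaws only at the proximal ends, 47 only at the distal ends, 29 at both with the same direction, 22 at both with opposite directions and 5 at neither. With the replicate number as a block the interaction was called for 1216 genes. The count was 183 without proximal mandible 1, and 288 to 316 without proximal maxilla 1 or 3, distal maxilla 1 or 2, or distal mandible 1 or 3.

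Contractile genes were higher in the mandible at both ends, with a list median of 3.30 at the distal ends. An interaction was called for 1 of 37 members, beside 4.01% of all genes, and nothing is read from that count. Osteoblast genes had a median of -0.03 at the distal ends, against 1.69 at the proximal, and 9 of 15 showed an interaction. For Dmp1 the distal arrays read 10.16, 9.65 and 9.81 in the mandible and 11.81, 10.06 and 10.9 in the maxilla, so the mandible was not higher there (distal difference -1.05, adjusted p = 0.245; interaction 3.73 ± 0.77, adjusted p = 0.0105). Phex (3.24 ± 0.75, adjusted p = 0.0223; at most 0.0680 without any 1 of 4 arrays, proximal maxilla 3, proximal mandible 1, distal maxilla 1 or distal mandible 1), Srpx2 (2.72 ± 0.37, adjusted p = 0.000904) and Egr3 (3.19 ± 0.54, adjusted p = 0.00334) were also higher in the mandible at the proximal ends and not called at the distal ends. For Vit, encoding the matrix protein vitrin, the direction turned, from 1.1 at the proximal to -1.79 at the distal ends (interaction 2.89 ± 0.23, adjusted p = 3.48e-06). Immediate early genes showed an interaction for 5 of 15. The nasal gland, ciliated cell, olfactory and neuron lists had distal medians of -2.13, -1.95, -1.62 and -1.12, so the maxilla was higher at both ends. The neurogenic list had a distal median of -0.86. An interaction was called for 0 members of the first 4 of these lists and for 1 of 11 neurogenic factors. Beside 4.01% of all genes, nothing is read from these counts.

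Patterning genes differed between the ends in both senses. Hand2 was higher in the mandible at both ends, and the distal difference was larger (12.56, 12.49 and 12.19 against 5.4, 5.56 and 5.63, 6.88; interaction -3.29 ± 0.52, adjusted p = 0.00207). Tbx22 turned direction, being higher in the maxilla at the proximal and in the mandible at the distal ends (8.76, 8.6 and 9.31 against 6.52, 6.26 and 7.42; interaction -4.35 ± 0.64, adjusted p = 0.00135). Alx1 was high in the distal arrays of both jaws (12.02, 11.91 and 11.58 in the mandible and 12.25, 12.95 and 12.53 in the maxilla), with a distal difference of -0.74 (adjusted p = 0.368; interaction -3.9 ± 0.68, adjusted p = 0.00381). Dlx1as had an interaction of 3.74 ± 0.79 (adjusted p = 0.0137), Dlx2 of 1.87 ± 0.44 (adjusted p = 0.0235) and Dlx3 of 1.32 ± 0.33 (adjusted p = 0.0294), while those of Dlx1 (1.68 ± 0.56, adjusted p = 0.107) and Dlx5 (0.66 ± 0.27, adjusted p = 0.196) did not pass. Nr2f1, not called at the proximal ends, was higher in the maxilla at the distal ends (-2.06, adjusted p = 0.00381; interaction 2.17 ± 0.54, adjusted p = 0.0299). Qrfpr, a peptide receptor gene at background in both proximal pieces, read 7.48, 7.07 and 7.14 in the distal mandible (interaction -2.56 ± 0.24, adjusted p = 1.84e-05). Ckmt1, a mitochondrial creatine kinase, and Ctxn3, a neuronal membrane protein, were higher in the maxilla with a larger difference at the proximal ends (-3.23 ± 0.71 and -2.35 ± 0.56, adjusted p = 0.0162 and 0.0251); Ckmt1 was not called without proximal mandible 1 (0.0558), nor Ctxn3 without any 1 of 6 arrays (at most 0.0662), proximal maxilla 2 or 3, proximal mandible 1, distal maxilla 2, or distal mandible 1 or 2.

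**Figure D5:**
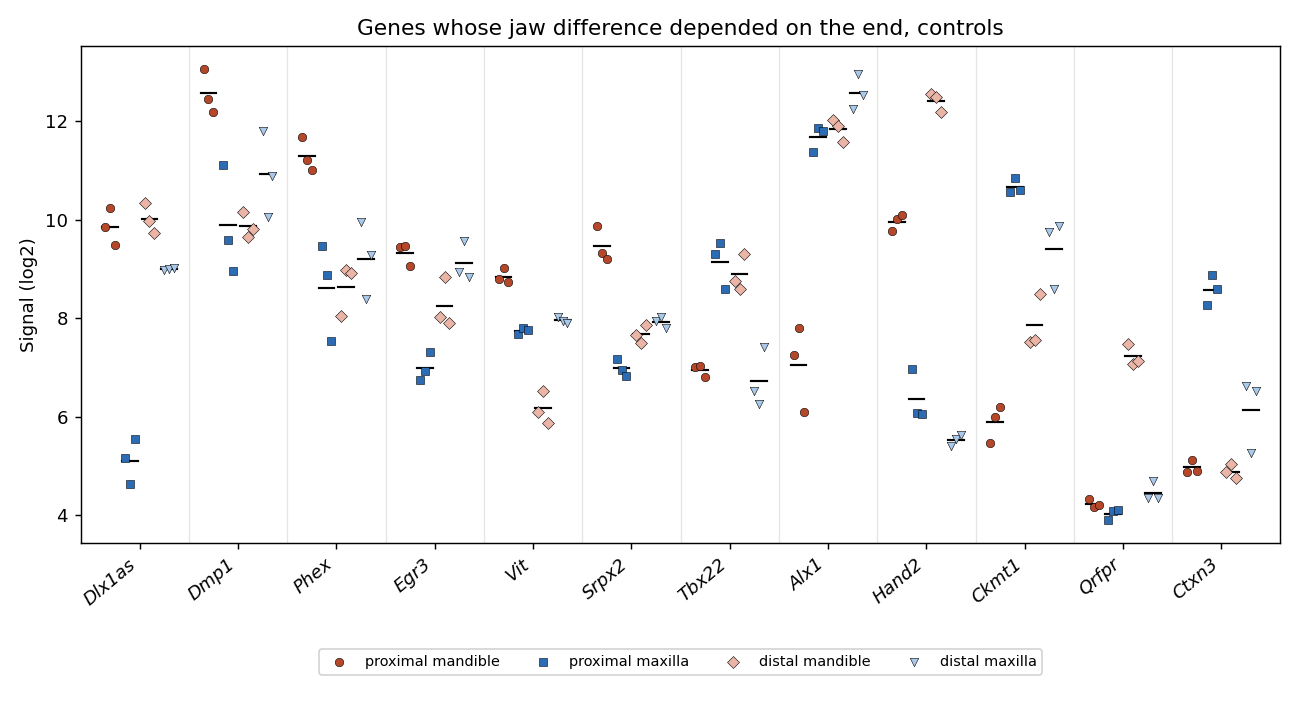
Log2 signal of the 12 genes with the largest interactions of jaw and end in controls (6 in each direction), each array a point and each line a group mean; proximal mandible and maxilla are dark red and dark blue, distal mandible and maxilla light red and light blue. Dmp1, Phex, Egr3 and Srpx2 separate the jaws at the proximal ends only, Tbx22 and Vit change direction, and Hand2 separates them further at the distal ends.

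Tgfbr2 itself read 12.21, 12.26 and 12.3 in the mutant proximal mandible and 12.56, 12.47 and 12.16 in the mutant proximal maxilla, not below the control values of 11.95, 11.89 and 11.95 and 11.61, 11.52 and 11.71. The position of its probe set relative to the deleted part was not looked up, and the pieces also hold cells in which Wnt1cre is not active, so these values do not check the mutant label. In the libraries labelled mutant, 2165 genes differed between the jaws at the proximal ends (16.9%). Of the control calls 1144 were shared with the same direction, 26.6% of the control and 52.8% of the mutant calls, and 54 had opposite directions. The interaction of jaw and genotype was called for 1325 genes (10.3%), 800 positive and 525 negative, and the jaw difference was larger in controls for 934 and in mutants for 391. The mutant maxilla arrays were unlike each other. Mutant proximal maxilla 1 and 2 had nasal gland list means of 6.22 and 6.26 and olfactory means of 7.29 and 7.52, close to the control mandible arrays, while mutant proximal maxilla 3 had 9.06 and 9.23. Their contractile means were 10.79 and 9.66 against 8.63, and their cartilage means 8.13 and 7.92 against 10.68; the part of these tissues in the interaction was not tested. With replicate 3 standing alone for the mutant proximal maxilla, a setting chosen after seeing the data, limma called 0 genes, and 1340 had an unadjusted p under 0.05. That group then held 1 array, assumed to vary like the other groups, and fewer arrays alone widen the error, so this count says little about the interaction. Whether mutant proximal maxilla 1 and 2 were dissected or labelled differently from number 3 is not told by the labels, so the jaw by genotype values cannot be told apart from such a difference. The count was 213 without mutant maxilla 1, 260 without mutant maxilla 2 and 2651 without mutant maxilla 3. It was also 483, 766 and 856 without control maxilla 1, 2 and 3, 637 and 408 without control mandible 1 and 3, and 746 without mutant mandible 1, and 2735 with the replicate block.

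Smpx and Neb, contractile genes, had mutant jaw differences of -0.8 and -0.46 where the controls had 3.8 and 3.81 (interactions 4.6 ± 1.3 and 4.28 ± 1.24, adjusted p = 0.0336 and 0.0369, called in 14 of 23 settings each). For Smpx the mutant maxilla arrays read 10.44, 9.16 and 7.87 and the mutant mandible arrays 8.34, 7.97 and 8.76. The contractile list had a mutant median of -0.37 against 3.09 in controls. The interaction of jaw and genotype was called for 22 of 37 members, beside 10.3% of all genes. The mast cell protease genes Cpa3 and Cma1 did not differ between control jaws by the test (1.11 ± 0.7 and 0.73 ± 0.72, adjusted p = 0.242 and 0.477) and were higher in the mutant maxilla (-3.76 and -3.96; interactions 4.87 ± 0.99 and 4.69 ± 1.02, adjusted p = 0.0112 and 0.0148). In all 3 mutant maxilla arrays Cpa3 was high (12.15, 11.73 and 11.19), also in the array with nasal markers. Krt25, a hair follicle keratin at background in both control pieces, behaved alike (8.13, 10.26 and 8.93 in the mutant maxilla, interaction 4.49 ± 0.9, adjusted p = 0.011). Cpa3, Cma1 and Krt25 were each called in 22 of 23 settings, the exception being replicate 3 alone, where the adjusted p was at most 0.347. Over all settings these 3 interactions lay between 3.91 and 5.22. Osteoblast genes were higher in the mandible in the mutants as well, with a median of 2.28. The interaction was called for 2 of 15 members, beside 10.3% of all genes, and nothing is read from that count. Hand2 differed by 3.49 in mutants and 3.59 in controls (interaction adjusted p = 0.926).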

How the data were processed

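Dissected proximal and distal jaw ends of control and Tgfbr2 mutant embryos at embryonic day 14.5 were profiled on Affymetrix Mouse430_2 arrays, 1 array per sample (24 arrays, 5 µg total RNA each, per the labels' protocols). The authors deposited log2 values, and Partek 6.6 and RMA are named per the submitters' processing notes. RMA in general corrects background, forces arrays to a common distribution and compresses low signals.

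Of 45101 deposited probe sets, 64 were array controls, 34945 had 1 gene symbol, 932 several and 9160 none here. A gene was represented by its brightest probe set, and 12811 of 18193 genes passed a filter of being above the array median in at least 3 arrays. limma 3.58.1 (R 4.3.3) fitted all 24 arrays in 8 groups, with contrasts for the jaw, jaw by end and jaw by genotype, Benjamini-Hochberg adjustment and a threshold of 0.05, and was tested on simulated data. The deposited values carry no counts, so their precision was judged from the spread among the 3 arrays of a group, pooled by the fit over all 8 groups.

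Named genes are the 15 largest differences each way among called genes without overlap, all tested members of both jaw patterning lists, up to 5 called members (largest difference) of every other list, or 2 members where fewer than 2 were called, and 6 each way for each interaction. Exceptions are stated as named after their values were seen. The members of the comparison, the 44 gene lists and the tests were chosen with earlier results of these data known. Same-numbered pieces deviated together from their group means (correlations of 0.360, 0.203 and 0.232 for numbers 1, 2 and 3). Unequal numbers gave -0.273 to 0.0269. Deviations cancel out within a group, so positive values for equal numbers by themselves lower those for unequal numbers. The range for unequal numbers is therefore no separate contrast. What same-numbered pieces share was not tested, and the labels do not tie the numbers to embryos or litters. Xist read 6.49 in control proximal maxilla 2 and 12.43 to 12.97 in the other control pieces numbered 2, so that number may not be 1 embryo. The main fit was therefore unpaired. A replicate block was an alternative, with 5783 genes called between the jaws in place of 4302. Other alternatives changed the arrays fitted, the filter, the probe set rule, the scaling, array weights, the variance model, a Xist covariate, and left out each array. Promoter windows are RefSeq's (GRCm38.p6). Figures were drawn with matplotlib 3.10.9.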

Additional observations from a re-analysis of the deposited data

Results flagged for a closer look

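For 12 genes the jaw difference in controls differed between the proximal and the distal ends by a test of that difference (limma, adjusted p from 3.48e-06 for Vit to 0.0251 for Ctxn3), and they are the 6 largest in each direction. The proximal minus the distal difference was 3.74 for Dlx1as, 3.73 for Dmp1, 3.24 for Phex, 3.19 for Egr3, 2.89 for Vit and 2.72 for Srpx2. It was -4.35 for Tbx22, -3.90 for Alx1, -3.29 for Hand2, -3.23 for Ckmt1, -2.56 for Qrfpr and -2.35 for Ctxn3. All 12 kept their sign in all 23 alternatives, and the calls of Phex, Ckmt1 and Ctxn3 were each lost in at least 1.

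For 12 further genes the jaw difference at the proximal ends differed between controls and mutants (limma, adjusted p from 0.011 for Krt25 to 0.0436 for Sult1d1). The control minus the mutant difference was 4.87 for Cpa3, 4.69 for Cma1, 4.60 for Smpx, 4.49 for Krt25, 4.30 for Dpt and 4.28 for Neb. It was -4.93 for Hapln1, -4.51 for Sult1e1, -4.21 for Rlbp1, -4.18 for Mia, -4.08 for Svopl and -3.79 for Sult1d1. Hapln1, a link protein of cartilage matrix, measured 10.93, 11.35 and 9.01 and 12.29, 11.16 and 12.25 in the control mandible and maxilla and 11.86, 12.26 and 12.01 and 7.22, 7.13 and 11.39 in the mutant ones, so mutant maxilla 3 was unlike mutant maxilla 1 and 2. Sult1e1, of the nasal gland list, read 4.82, 4.84 and 9.07 in the mutant maxilla. Dpt, a dermal matrix protein, read 11.36, 10.93 and 10.1 there. Of 23 alternatives, the call was kept in 22 for Cpa3, Cma1 and Krt25, in 14 for Smpx and Neb, in 13 for Rlbp1, in 12 for Dpt, in 11 for Mia and Svopl, in 10 for Hapln1 and in 8 for Sult1e1 and Sult1d1. Most losses came from leaving out 1 array. Each of these 12 calls was lost with mutant maxilla 3 alone for its group, a setting chosen after seeing the data in which that group holds 1 array and the error is wider for that reason alone. There the difference was 4.37 for Cpa3 and 4.05 for Cma1, 3.61 for Dpt, 3.32 for Smpx and 2.93 for Neb, and it was -2.12 for Hapln1, -1.69 for Sult1e1, -2.31 for Rlbp1, -1.63 for Mia, -1.75 for Svopl and -1.37 for Sult1d1.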

How the results depend on the processing

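The count of genes differing between the jaws at the control proximal ends (4302) stayed within 1.5 times under every alternative run, from 3307 to 3799 without 1 array to 5783 with the replicate block. The interaction of jaw and end (514) became 1035 with the 12 control arrays alone, 1035 with only the arrays compared, 1216 with the replicate block and 2002 with array weights, and ran from 183 to 395 without 1 array. The count at the control distal ends (1129) ran from 389 to 1109 without 1 array. The interaction of jaw and genotype (1325) became 861 with only the arrays compared, 2735 with the replicate block, 4549 with array weights and 0 with mutant maxilla 3 alone (a group of 1 array, which by itself widens the error), and ran from 213 to 2651 without 1 array; the 12 control arrays alone cannot give it. Scaling moved the share of calls higher in the mandible from 49.4% to 53.5% at most (median centring) and the positive share of the genotype interaction from 60.4% to 51.0% (quantile normalization). Of 200 named genes called between the jaws, 162 were called under every alternative, 38 were lost under at least 1 and 0 changed direction. The replicate block ended no call of a gene named for the jaw difference. The cause of these shifts was not tested. With 3 arrays per group the smallest difference called was 0.11, and differences of genes near the array median are limited by signal over background.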
